A study of Mus musculus with 6 samples.

Results

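The 10 genes described here encode the TSC-Rheb brake on the kinase complex mTORC1 and proteins that act below that complex: Tsc1, Tsc2, Tbc1d7, Rheb, Rps6kb1, Rps6kb2, Larp1, Pdcd4, Maf1 and Grb10. They were chosen by name, and all 10 were found among the 55487 genes of each table. No gene for a 4E-BP protein, the other well-known class of mTORC1 substrate, is among them, so the 4E-BP genes are given with the rest of the pathway. RNA came from naive CD4+ T cells of the spleen of WT C57BL6/J mice, 3 libraries from mice treated in vivo with Rapamycin and 3 from mice with no treatment. The sources used here give neither dose, route, duration nor age, and do not say whether each library came from a separate mouse, so the spread behind each p-value is that of these 6 libraries and may be technical only. The study set out to learn what mTOR inhibition does to these cells.

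mTORC1 promotes protein synthesis and cell growth when nutrients and growth factors are present. The small GTPase Rheb, bound to GTP, switches the complex on at the lysosome, and the TSC complex of TSC1, TSC2 and TBC1D7 holds Rheb in its GDP-bound, inactive state. Active mTORC1 phosphorylates the S6 kinases, the 4E-BPs, LARP1, MAF1 and GRB10, and S6 kinase in turn marks PDCD4 for destruction. In naive T cells, loss of Tsc1 is known to end quiescence. Rapamycin, bound to FKBP12, inhibits mTORC1 itself, so all of these proteins are controlled in part by phosphorylation, which RNA sequencing does not see.

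Total expected counts ran between 8757280 and 9315370 in rapamycin libraries and between 9712670 and 11393300 in untreated libraries. Levels are given as CPM, counts scaled to library size with TMM factors, or as TPM, which is also scaled for transcript length. Naive CD4 T cell markers were present in all libraries, with Cd4 at 686 CPM and Cd3e at 347 CPM in the rapamycin mean and 715 and 356 CPM in the untreated mean. Markers of other cells differed between the groups. The 2 CD8 markers summed to between 87.8 and 90.9 CPM in rapamycin libraries and to at most 20.4 CPM in untreated libraries. The 5 activated or memory T cell markers summed to between 40.5 and 44.7 CPM with rapamycin and between 119 and 129 CPM without. The 6 B cell markers summed to between 945 and 985 CPM with rapamycin and between 1225 and 1262 CPM without. Most of that sum was Ighm, at 529 CPM with rapamycin and 793 CPM without, and 3 of the 6 were called lower. The 7 myeloid markers summed to at most 12.5 CPM with rapamycin and to at least 38.1 CPM without. The 5 plasma cell markers summed to at most 56.2 CPM with rapamycin and at least 81.2 CPM without. Of these, 4 were called lower and 1, Prdm1, higher (18.6 CPM with rapamycin and 8.93 CPM without). Jchain was at 0.787 CPM with rapamycin and 11.6 CPM without, and Ighg2b at 0.380 and 17.8 CPM. The 5 NK cell markers summed to at most 47.6 CPM with rapamycin and at least 50.7 CPM without. Most of that sum was Prf1, at 41.1 and 40.7 CPM, whereas Gzma was at 2.17 and 7.77 CPM. The 5 erythroid markers summed to at most 2.78 CPM with rapamycin and at most 10.5 CPM without. The 4 regulatory T cell markers summed to at least 16.9 CPM with rapamycin and at most 12.2 CPM without. Of these 4, 2 were called higher and 0 lower, and Foxp3 was at 1.91 CPM with rapamycin and 1.62 CPM without. The part of these cells in the results was not tested, and in bulk RNA fewer cells of a type cannot be told apart from less RNA per cell.

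Tsc1, Pdcd4, Maf1, Rps6kb1 and Larp1 were higher with rapamycin and Tbc1d7 was lower, although Larp1 turned direction once transcript length was allowed for, while Tsc2, Rheb and Rps6kb2 did not pass the test and Grb10 was listed at 0 in every library. Fold changes are log2 values, rapamycin over untreated, ± SE, with p from edgeR's quasi-likelihood test adjusted over all genes tested by the Benjamini-Hochberg method and a threshold of 0.05. Of the 9 genes tested, 5 rose and 1 fell, with a median log2 fold change of 0.09. Of all 11950 genes tested 47.4% were called, 24.1% higher and 23.3% lower, and the median was −0.01, so a call on a single gene is common in this comparison. Limma on log2(TPM + 1) put the share of higher genes among those called at 70.3%, where edgeR put it at 50.8%. The CPM of the groups did not overlap for 6 of the 9 genes, and did not for 53.8% of all genes tested.

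**Figure D1:**
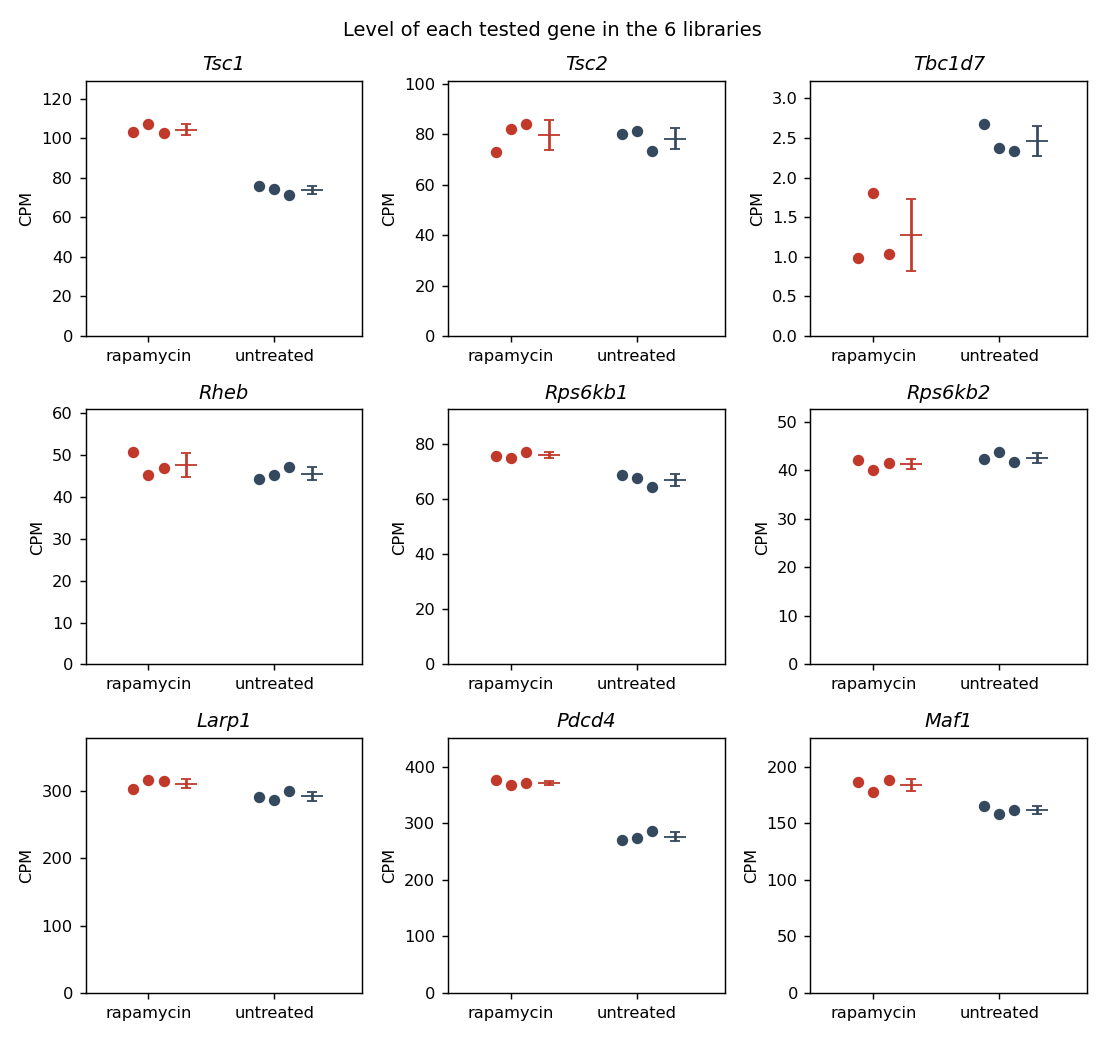
CPM of each of the 9 tested genes (y axis, from 0) in the 3 rapamycin and 3 untreated libraries (x axis), 1 point per library, with mean ± SD beside the points. Tsc1 and Pdcd4 stand highest above their untreated libraries, Tbc1d7 lies at 1.80 CPM or less with rapamycin and 2.33 CPM or more without, and the groups of Tsc2, Rheb and Rps6kb2 overlap.

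Fold changes in these libraries followed transcript length, and this bears on each gene. Of 9979 genes whose average log2 CPM reached 2, the 998 with the shortest transcripts, at most 1062 bases, had a median log2 fold change of −0.32, and the 998 with the longest, above 5091 bases, had one of 0.25. A length correction, which removes a smooth curve of level on length from each library, brought these medians to −0.02 and −0.01. With it 38.4% of genes were called, 20.2% higher and 18.2% lower, and among the 9 genes 3 were higher (Tsc1, Pdcd4 and Maf1) and 1 lower (Larp1). Tsc1, Pdcd4 and Maf1 were thus called in the same direction with and without it.

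**Figure D2:**
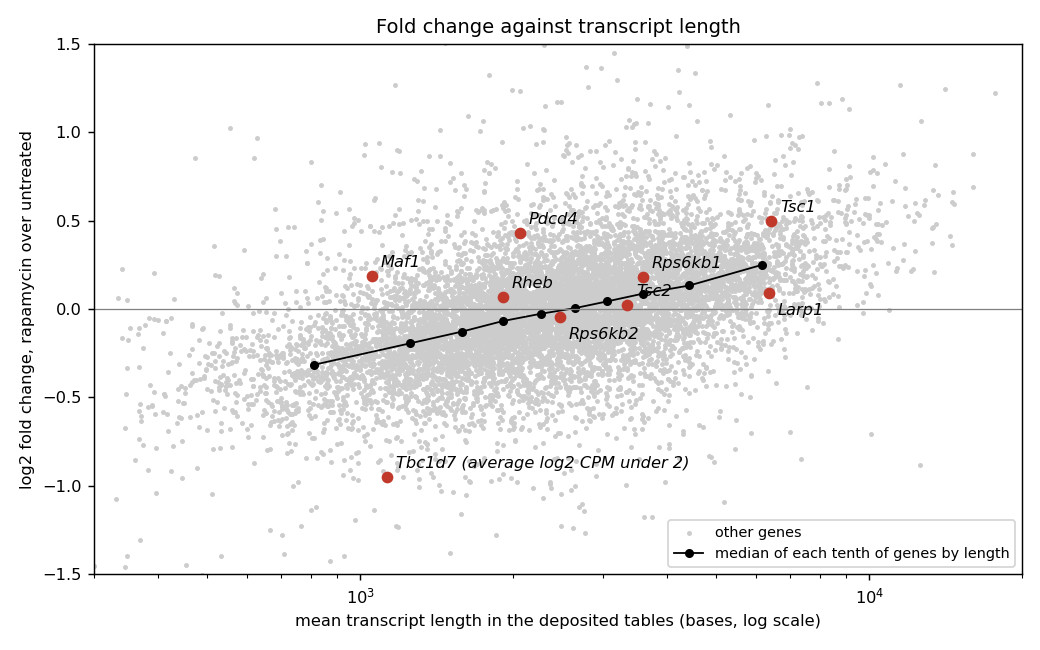
Log2 fold change of rapamycin over untreated (y axis) against mean transcript length in bases (x axis, log scale), for genes whose average log2 CPM reached 2 in grey and for the 9 tested genes in red, with medians of 10 bins by length, of nearly equal size, in black; 48 of the 9979 genes lie outside the axes. Pdcd4 and Maf1 sit above the medians of genes of their length, Tsc1 sits above at the long end, and Larp1 sits below.

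Tsc1 encodes hamartin, which stabilises TSC2 in the complex. It lies at chr2:28641228-28691167 on mm10 (ENSMUSG00000026812, plus strand). Tsc1 was at 103, 108 and 102 CPM in the rapamycin libraries, against 75.7, 74.1 and 71.6 CPM in the untreated libraries. Every rapamycin library was above every untreated library. The log2 fold change was 0.50 ± 0.05 (adjusted p = 2.3e-13), a fold of 1.41. At a mean transcript length of 6425 bases it is among the longest 998 genes, and the length correction left 0.24 ± 0.05 (adjusted p = 7.5e-05).

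The promoter of Tsc1, the brake gene with the largest rise, is shown as the 250 bases before its RefSeq start (GRCm38.p6, plus strand, chr2:28640983-28641232), all in lower case because it held none of the motifs searched.
Tsc1 promoter: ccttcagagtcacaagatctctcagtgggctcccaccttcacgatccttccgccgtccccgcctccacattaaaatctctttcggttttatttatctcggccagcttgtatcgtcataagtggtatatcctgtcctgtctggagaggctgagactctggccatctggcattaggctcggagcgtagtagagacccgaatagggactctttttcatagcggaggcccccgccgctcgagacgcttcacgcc
The motifs were GTAAACA (bound by FOXO factors), CACGTG (the E-box), TGATGNAA (ATF4), TGACGTCA (CREB) and the palindromic NRF1 consensus, whose letters stand in capitals in the Pdcd4 window, on both strands. They were in 3.17%, 6.02%, 3.45%, 1.55% and 0.782% of 32851 RefSeq promoter windows of this size. RefSeq gave windows for 8 of the 10 genes, 10 windows in all. The E-box was in those of Rheb and Tbc1d7 and the NRF1 motif in 1 of the 2 windows of Pdcd4, and the other motifs were in none.

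Tsc2 encodes tuberin, the subunit that stimulates GTP hydrolysis by Rheb (ENSMUSG00000002496, chr17:24595816-24632630, minus strand). Tsc2 was at 72.9, 82.0 and 84.2 CPM with rapamycin, against 80.0, 81.1 and 73.4 CPM without. The groups overlapped, with rapamycin replicate 1 the lowest of the 6 libraries. The log2 fold change was 0.03 ± 0.05 (adjusted p = 0.733), or −0.05 with the length correction. Of the bases in its exons, 693 of 9620 also lie in exons of Pkd1 on the other strand, which averaged 430 ± 6.46 CPM with rapamycin and 299 ± 3.66 CPM without (SD, n = 3 each). Whether reads were counted by strand is not given in the sources used here, so reads over that stretch cannot be told apart.

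TBC1D7 is the third subunit of the TSC complex and helps hold it together (ENSMUSG00000021368, chr13:43151740-43171501, minus strand). Tbc1d7 was at 0.981, 1.80 and 1.04 CPM in rapamycin libraries, against 2.68, 2.37 and 2.33 CPM in untreated libraries. These values rest on 9, 16 and 9 counts with rapamycin and on 31, 25 and 23 counts without. The groups did not overlap, and the log2 fold change was −0.95 ± 0.35 (adjusted p = 0.0228), a fold of 0.518. The length correction left −0.74 ± 0.35 (adjusted p = 0.0945), and DESeq2 gave −0.95 (adjusted p = 0.0767). The call was also lost without rapamycin replicate 1 (−0.79, adjusted p = 0.109), rapamycin replicate 3 (−0.83, adjusted p = 0.0926) or untreated replicate 1 (−0.88, adjusted p = 0.0843), so the fall rests on few counts. Its promoter window is shown as the only member of the TSC complex with a motif match, an E-box in capitals (GRCm38.p6, minus strand, chr13:43171502-43171751).
Tbc1d7 promoter: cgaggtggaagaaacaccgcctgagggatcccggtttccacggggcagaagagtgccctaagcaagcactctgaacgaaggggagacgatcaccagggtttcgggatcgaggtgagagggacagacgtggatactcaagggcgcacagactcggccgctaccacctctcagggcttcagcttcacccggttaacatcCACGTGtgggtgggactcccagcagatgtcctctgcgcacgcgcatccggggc

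Rheb, the GTPase that the complex restrains, did not pass the test (ENSMUSG00000028945, chr5:24802823-24842624, minus strand). Rheb was at 50.8, 45.3 and 47.1 CPM with rapamycin, against 44.2, 45.4 and 47.2 CPM without. The groups overlapped, and rapamycin replicate 1 was the highest library. The log2 fold change was 0.07 ± 0.07 (adjusted p = 0.433), and 0.12 ± 0.07 with the length correction (adjusted p = 0.142). Per length, the 39.6, 38.3 and 41.4 TPM with rapamycin lay above the 37.7, 35.0 and 37.4 TPM without. The median of all genes tested was 0.086 with limma on log2(TPM + 1) and −0.01 with edgeR, a shift of 0.098 between the methods. Rheb was at 0.115 with limma on log2(TPM + 1) (adjusted p = 0.206), or 0.017 less that shift. Its paralog Rhebl1, which also can activate mTORC1, was at 13.5 ± 1.08 CPM with rapamycin and 8.10 ± 1.51 CPM without (SD, n = 3 each), a log2 fold change of 0.73 ± 0.15 (adjusted p = 2.7e-05; length-corrected 0.91).

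The S6 kinases phosphorylate ribosomal protein S6 and other substrates that raise translation. Rps6kb1 encodes S6K1 (ENSMUSG00000020516, chr11:86498871-86544805, minus strand). Rps6kb1 was at 75.9, 75.1 and 77.1 CPM in rapamycin libraries, against 68.7, 67.9 and 64.6 CPM in untreated libraries. The groups did not overlap, and the log2 fold change was 0.18 ± 0.05 (adjusted p = 0.00421). The length correction left 0.09 ± 0.05 (adjusted p = 0.193), and limma on log2(TPM + 1) gave 0.15 (adjusted p = 0.203). Exons of Rnft1 on the other strand cover 155 of its 8658 exonic bases, and Rnft1 did not pass the test (adjusted p = 0.0732).

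Rps6kb2, which encodes S6K2, did not pass the test (ENSMUSG00000024830, chr19:4153991-4163354, minus strand). Rps6kb2 was at 42.2, 40.1 and 41.4 CPM with rapamycin, against 42.2, 43.8 and 41.7 CPM without. The groups overlapped, and the log2 fold change was −0.05 ± 0.07 (adjusted p = 0.618; length-corrected −0.05). Of its 5167 exonic bases, 1224 are shared with Ptprcap and 45 with Coro1b, both on the other strand and both abundant in T cells. Ptprcap was at 227 ± 10.8 CPM with rapamycin and 322 ± 3.07 CPM without (SD, n = 3 each), a log2 fold change of −0.50 ± 0.03 (adjusted p = 4.6e-22). Rps6kb2 had expected counts that were not whole within 0.005 in all 6 libraries, and Tsc2 in 5 of 6, whereas the other 8 genes had whole counts in all. Some reads of Rps6kb2 and Tsc2 were thus divided among genes, and their values are uncertain.

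PDCD4 binds the helicase eIF4A and blocks translation initiation until S6 kinase marks it for degradation. Pdcd4 (ENSMUSG00000024975, chr19:53892231-53929860, plus strand) was at 376, 368 and 371 CPM with rapamycin, against 270, 273 and 286 CPM without. Every rapamycin library was above every untreated library. The log2 fold change was 0.43 ± 0.03 (adjusted p = 1.2e-20), a fold of 1.35, and the length correction left 0.47 ± 0.03 (adjusted p = 1.5e-21). Across the 20 alternatives run it stayed called, between 0.39 and 0.54.

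RefSeq gives Pdcd4 a pair of starts, and the 250 bases before each are shown because its rise had the smallest adjusted p of the 10 genes (GRCm38.p6, plus strand, chr19:53891981-53892230 and chr19:53903101-53903350). Capitals mark the NRF1 motif in the downstream window. Which start these cells use was not measured.
Pdcd4 upstream promoter: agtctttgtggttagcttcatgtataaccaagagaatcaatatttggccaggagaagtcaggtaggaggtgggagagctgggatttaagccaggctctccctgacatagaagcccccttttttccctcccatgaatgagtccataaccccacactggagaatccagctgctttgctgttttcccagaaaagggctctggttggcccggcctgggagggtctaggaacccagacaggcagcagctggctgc
Pdcd4 downstream promoter: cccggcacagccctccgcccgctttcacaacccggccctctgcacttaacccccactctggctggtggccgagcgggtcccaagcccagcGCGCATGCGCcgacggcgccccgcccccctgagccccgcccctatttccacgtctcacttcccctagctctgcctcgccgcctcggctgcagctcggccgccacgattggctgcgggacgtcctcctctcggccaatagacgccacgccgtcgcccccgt
Pdcd4 mRNA is also a known target of miR-21, whose gene lies on chromosome 11 of the mouse (chr11:86584120-86584141, minus strand). The seed of miR-21a-5p, bases 2 to 8, is in capitals in the RefSeq mature sequence, and the complementary bases are in capitals in the 30-base site found in 2 of 6 Pdcd4 transcripts of GENCODE vM21, in the 3′ UTR (GRCm38, plus strand, chr19:53929410-53929439).
miR-21a-5p: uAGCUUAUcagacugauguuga
Pdcd4 site: ccaccgaagtgtgggtgttctgATAAGCTa
Mature miRNAs were not measured in these libraries.

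LARP1 binds the 5′ ends of terminal oligopyrimidine (TOP) mRNAs, which encode ribosomal proteins and translation factors, and represses them when mTORC1 is off. Larp1 (ENSMUSG00000037331, chr11:58009064-58062034, plus strand) was at 303, 316 and 314 CPM with rapamycin, against 291, 286 and 300 CPM without. The groups did not overlap, but rapamycin replicate 1 was close to untreated replicate 3. The log2 fold change was 0.09 ± 0.03 (adjusted p = 0.00596), and the length correction turned it to −0.17 ± 0.03 (adjusted p = 1.5e-06), since Larp1 transcripts average 6353 bases. Offsets from the deposited effective lengths gave 0.07 (adjusted p = 0.182), and the call was lost without untreated replicate 2 (0.07, adjusted p = 0.0594), so no direction can be given for Larp1. The start of Rps6, an S6 kinase substrate and TOP mRNA, is shown as the kind of sequence LARP1 binds, with its opening pyrimidines in capitals, beside the start of Larp1 (RefSeq, GRCm38.p6, chr4:86857348-86857367, minus strand, and chr11:58009064-58009083, plus strand).
Rps6 start: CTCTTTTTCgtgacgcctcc
Larp1 start: gagccttctgcccggcgcgc
A start with C and at least 4 further pyrimidines was found for 2.51% of all RefSeq starts and 0 of the 10 starts of these genes. Of 15 TOP genes matched it was found for 3, Rps6, Eif3f and Rack1. RefSeq starts are annotated, not mapped in these cells.

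MAF1 represses RNA polymerase III, and mTORC1 keeps it inactive by phosphorylation. Maf1 (ENSMUSG00000022553, chr15:76351294-76354380, plus strand) was at 186, 178 and 188 CPM with rapamycin, against 165, 158 and 162 CPM without. The groups did not overlap, and the log2 fold change was 0.19 ± 0.03 (adjusted p = 7.6e-06), a fold of 1.14. Its transcripts average 1053 bases, among the shortest 998 genes, whose median was −0.32, and the length correction raised the change to 0.42 ± 0.03 (adjusted p = 1.4e-15). With effective-length offsets it was 0.17 and not called (adjusted p = 0.0689).

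GRB10, an adaptor that mTORC1 stabilises and that damps insulin and growth factor signalling, had no reads. Grb10 (ENSMUSG00000020176, chr11:11930508-12038683, minus strand) was listed at 0 counts in the 3 rapamycin and the 3 untreated libraries. A count of 0 allows up to 3 counts, or between 0.322 and 0.343 CPM in rapamycin libraries and between 0.263 and 0.309 CPM in untreated libraries. It was not tested. Of its paralogs, Grb7 was at 0.896 ± 0.319 CPM with rapamycin and 0.929 CPM without, and Grb14 did not pass the filter on low counts.

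**Figure D3:**
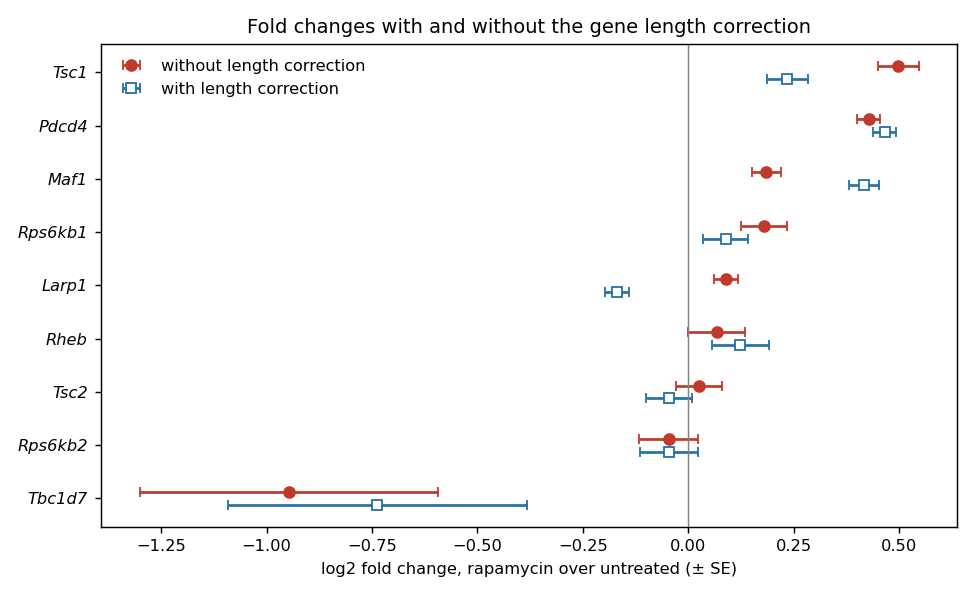
Log2 fold change of rapamycin over untreated ± SE (x axis) for the 9 tested genes (rows), without (circles) and with (open squares) the length correction. With the correction Pdcd4 is at 0.47, Tsc1 is down at 0.24, Maf1 is up at 0.42 and Larp1 is below 0 at −0.17.

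Per length, the order of the genes was the same in both groups. Maf1 was highest, at 303 to 348 TPM with rapamycin and 254 to 282 TPM without. Pdcd4 came next, at 289 to 292 TPM with rapamycin and 194 to 206 TPM without. Larp1 followed at 70.5 to 72.0 TPM with rapamycin and 61.3 to 65.3 TPM without, then Rheb, Tsc2, Rps6kb1, Rps6kb2, Tsc1 and Tbc1d7. Rheb and Tsc2 overlapped in both groups and Tsc2 and Rps6kb1 overlapped with rapamycin, while all other neighbours in the order were apart in all libraries. Tsc1 was at 23.3, 25.2 and 24.2 TPM with rapamycin and at 16.0, 15.6 and 14.6 TPM without, and so below its partner Tsc2 in every library. Tsc2 was at 29.9, 35.1 and 39.6 TPM with rapamycin and at 41.2, 30.6 and 33.4 TPM without. Tbc1d7 lay at 1.43 to 2.52 TPM with rapamycin and 3.18 to 4.35 TPM without.

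**Figure D4:**
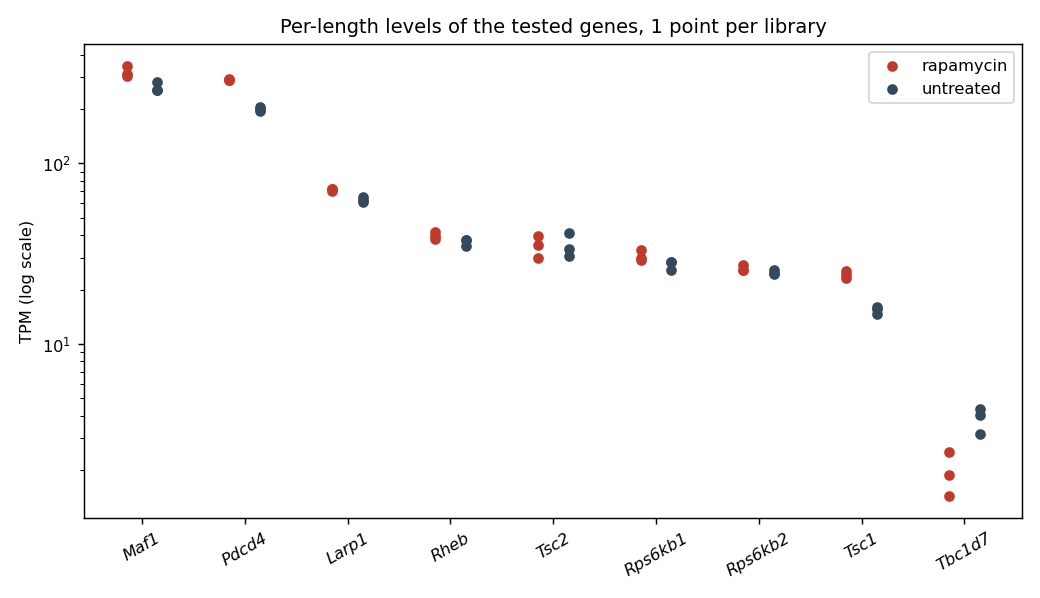
TPM (y axis, log scale) of the 9 tested genes (x axis, in order of their rapamycin mean), 1 point per library, rapamycin left of untreated. Maf1 and Pdcd4 lie at 194 TPM or more in all libraries and Tbc1d7 at 4.35 TPM or less.

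Ratios within a library do not depend on how libraries are scaled, but they do carry the trend of fold change with length where a pair differs in length. The ratio of Tsc1 to Tsc2 in TPM was 0.778, 0.718 and 0.612 with rapamycin, against 0.390, 0.509 and 0.437 without, a difference of 0.66 on the log2 scale and of 0.47 with expected counts. The length-corrected fold changes of these genes stood closer, at 0.24 for Tsc1 and −0.05 for Tsc2. That of Tbc1d7 to Tsc1 averaged 0.0801 ± 0.0205 with rapamycin and 0.250 ± 0.0283 without (SD, n = 3 each), a log2 difference of −1.67, while the length-corrected fold changes were −0.74 for Tbc1d7 and 0.24 for Tsc1. That of Pdcd4 to Rps6kb1 averaged 9.49 ± 0.608 with rapamycin and 7.26 ± 0.640 without, a log2 difference of 0.39, or 0.25 with expected counts. For each of these 3 the groups did not overlap, and the two-sided exact permutation test gave p = 0.1 (0.167 adjusted over the 5 ratios), the smallest that 3 against 3 libraries can give. Rheb to Tsc2 (1.16 ± 0.150 with rapamycin and 1.06 ± 0.125 without, exact permutation p = 0.6) and Rps6kb1 to Rps6kb2 (1.17 ± 0.111 with rapamycin and 1.10 ± 0.0617 without, exact permutation p = 0.5) overlapped in TPM. In expected counts the ratio of Rps6kb1 to Rps6kb2 was 1.80, 1.88 and 1.87 with rapamycin, against 1.63, 1.55 and 1.55 without, so that these groups were apart (log2 difference 0.23, exact permutation p = 0.1).

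RSEM's mean length of a gene is weighted by the isoforms it estimates in each library, and it varied for all genes but Grb10. Tsc1 isoforms averaged 6458, 6229 and 6187 bases with rapamycin, against 6463, 6521 and 6694 bases without, a difference of −4.09% (exact two-sided permutation p = 0.1, or 0.643 adjusted over 9 genes). No other gene had groups apart. Tsc2, with 22 annotated transcripts, ranged from 3241 to 3670 bases with rapamycin and from 2798 to 3733 bases without.

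The rest of the pathway was read from lists chosen with earlier results of these data known. Among 32 tested genes that feed into the TSC complex 16 rose and 4 fell, with a median of 0.11 (length-corrected 9 and 8, median 0.00). Pik3cd, the leukocyte catalytic subunit of PI3K, was at 1415 ± 15.2 CPM with rapamycin and 925 CPM without, a log2 fold change of 0.61 ± 0.02 (length-corrected 0.45), and the regulatory subunit gene Pik3r5 rose by 0.68 (length-corrected 0.56). Igf1r, the receptor of insulin-like growth factor, rose by 1.19 ± 0.06, with 82.9 ± 0.270 CPM with rapamycin and 36.3 CPM without (length-corrected 0.84). Each had an adjusted p of at most 2.7e-25. Among 5 subunits of mTORC1, 3 rose and 1 fell, with a median of 0.18, and with the length correction 1 was higher and 1 lower, with a median of −0.04. Mtor changed by 0.30 (length-corrected 0.01, not called), Mlst8 by −0.25 (length-corrected −0.26) and the inhibitor gene Deptor, at 1.73 CPM with rapamycin and 0.625 CPM without, by 1.44 (length-corrected 1.22).

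Of 14 tested genes for S6 kinase substrates 6 rose and 3 fell, with a median of 0.07 (length-corrected 4 and 3, median −0.01). Rictor, a subunit of mTORC2, rose by 0.67 ± 0.03 (length-corrected 0.32) and Mxi1, an antagonist of MYC, by 0.70 ± 0.09 (length-corrected 0.72), and Rps6 changed by −0.31 ± 0.01 (length-corrected −0.03, not called). Among 7 genes for the partner and the degradation machinery of PDCD4, 1 rose and 3 fell (length-corrected 2 and 2). Eif4a1, a gene for the helicase eIF4A that PDCD4 binds, was at 469 ± 11.1 CPM with rapamycin and 543 CPM without. Its log2 fold change was −0.21 ± 0.02 (length-corrected −0.08, adjusted p = 0.00330). The other eIF4A gene listed, Eif4a2, is given for its protein and not by the rule for named genes. Eif4a2 was at 1002 CPM with rapamycin and 979 CPM without, and did not pass the test (0.03, adjusted p = 0.132). With the length correction Eif4a2 was called higher (0.14, adjusted p = 9.0e-09). The ubiquitin ligase genes Rbx1 and Skp1a changed by −0.38 (length-corrected −0.19) and −0.16 (length-corrected −0.02, not called).

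Of 14 genes of the cap-binding complex, its kinases and the 4E-BPs, 6 rose and 2 fell, and the same numbers held with the length correction, with medians of 0.06 and 0.05. Eif4ebp2 was at 536 ± 3.52 CPM with rapamycin and 438 ± 8.64 CPM without (SD, n = 3 each), a log2 fold change of 0.29 ± 0.02 (adjusted p = 1.5e-16; length-corrected 0.06, adjusted p = 0.0384). Mknk2, a kinase of eIF4E, rose by 0.21 (length-corrected 0.16). The other 4E-BP genes are named because of the protein class and not by the rule for named genes. Eif4ebp1 was at 3.42 ± 0.553 CPM with rapamycin and 3.84 ± 0.997 CPM without and did not pass the test (adjusted p = 0.642). Eif4ebp3 had 11.7, 0 and 5.79 expected counts with rapamycin, against 31.76, 24.52 and 49.97 without. Its log2 fold change was −2.31 ± 0.54 (adjusted p = 0.00166; length-corrected −1.99, adjusted p = 0.00803). Its nonzero counts were low and not whole, so some reads were divided among genes and its values are uncertain.

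Of 25 TOP mRNAs, the targets of LARP1, 22 fell and 2 rose, with a median of −0.21, and with the length correction 11 were lower and 9 higher, with a median of −0.03. Their tested transcripts have a median length of 1348 bases, against 2366 bases for all genes. Rps20 changed by −0.57 (length-corrected −0.26), Rpsa by −0.34 (−0.18) and Rps3 by −0.31 (−0.20). Of 21 genes for RNA polymerase III, the enzyme that MAF1 represses, and for its factors, 6 rose and 3 fell. Their median was 0.01 (length-corrected 4 higher and 2 lower, median 0.02). Brf1, the initiation factor that MAF1 binds, was at 173 ± 2.08 CPM with rapamycin and 140 CPM without, a log2 fold change of 0.31 ± 0.04 (adjusted p = 1.4e-10; length-corrected 0.38), Bdp1 rose by 0.49 (length-corrected 0.17) and the subunit gene Polr3c changed by −0.41 ± 0.06 (length-corrected −0.38). Among 13 tested paralogs of the 10 genes 5 rose and 3 fell (length-corrected 2 and 5), with Rps6ka1, a kinase of the RSK family, at −0.44 (length-corrected −0.45), Rhebl1 at 0.73 and Larp7 at −0.34 (length-corrected −0.30).

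**Figure D5:**
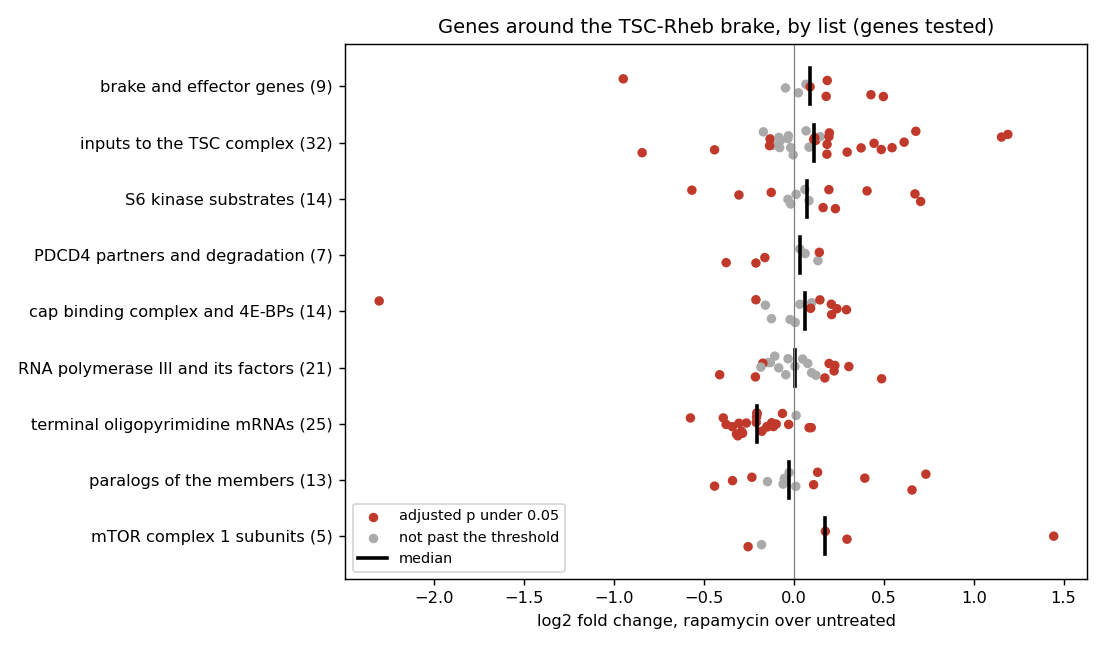
Log2 fold change of rapamycin over untreated (x axis) for each tested gene of the brake and effector set and of 8 lists around it (rows, with the number of genes tested), in red where the adjusted p was under 0.05 and in grey otherwise, with the median as a bar. The TOP mRNAs lie mostly below 0, with a median of −0.21, and the other lists spread to both sides.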

How the data were processed

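The labels' protocols name RNAiso PLUS for extraction and a NEBNext Ultra II Directional library kit. STAR, RSEM and mm10 are named per the submitters' processing notes, without versions or settings. Each of the authors' deposited tables holds RSEM expected counts, in which shared reads are divided among genes, beside the gene's length, TPM and FPKM, which allow for length and depth. FPKM was not used further. Symbols and positions came from GENCODE vM21, which matched 55227 of 55487 identifiers, and sequences from RefSeq (GRCm38.p6) and GENCODE.

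Expected counts were rounded, filtered with filterByExpr (11950 genes), scaled by TMM and tested with edgeR (robust quasi-likelihood, group only). The SE is the log2 fold change over the square root of F. The length correction fitted a spline of 5 degrees of freedom per library over genes whose average log2 CPM reached 2. Replicates differed by 1.73 to 2.03 times counting noise (mean chi-square per gene). The floor of 3 counts covers counting error only. The fits were tested on simulated data. Members, lists and tests were chosen with earlier results of these data known. All 10 members were named, and from each list up to 3 called genes by smallest adjusted p. Alternatives were RLE, upper-quartile and no factors, filters, limma-voom, DESeq2, limma after adding 1 or 0.1 to the deposited TPM on a log2 scale, length and GC corrections, effective-length offsets, a replicate block and leaving out each library. Versions were edgeR 4.0.16, DESeq2 1.42.0 and limma 3.58.1 in R 4.3.3, and Python 3.11.15.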

Additional observations from a re-analysis of the deposited data

How the results depend on the processing

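Over 20 alternatives for each of the 9 tested genes, 180 results in all, 146 kept their direction and side of the threshold, 19 lost their call and 15 turned sign. Tsc1, Pdcd4 and Rheb kept theirs in all 20, Tsc1 between 0.24 and 0.65 and Rheb, never called, between 0.0047 and 0.12. Tsc2 turned to −0.018 with upper-quartile factors, −0.016 without composition factors, −0.0072 on log2(TPM + 1), −0.0073 on log2(TPM + 0.1), −0.045 with the length correction, −0.023 with length and GC, −0.12 with effective-length offsets and −0.046 with the replicate block and length correction, and ranged from −0.018 to 0.087 when a library was left out, never called. Rps6kb2 turned to 0.071 and 0.074 on these TPM scales. There the median of all genes tested lay 0.098 and 0.108 above the edgeR median, and less that shift Rps6kb2 stood at −0.03 on both. Larp1 turned to −0.17 with the length correction, −0.15 with length and GC and −0.17 with the block and length correction, called each time, and lost its call with upper-quartile factors (0.05), without composition factors (0.05) and without a filter (0.07). For these the cause was not tested.

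The count of genes lower, 2785, moved to 1151 and 1137 on the TPM scales and to 1801 with effective-length offsets. Of the 9 members tested the 5 higher became 3 with the length correction, with length and GC and with the block and length correction. They became 2 with effective-length offsets, and ranged from 4 to 5 when a library was left out. Among all genes the 2874 higher became 2415, 2407, 2412 and 1930 in these 4 settings, in the order given. The 1 member lower, Tbc1d7, became 0 with DESeq2 (1 at an unadjusted p under 0.05, against 1 with edgeR and limma-voom). The number lower ranged from 0 to 1 when a library was left out. It stayed at 1 with the length correction, with length and GC and with the block and length correction, but there the gene was Larp1. In these 3 edgeR fits Tbc1d7 lost its call (adjusted p = 0.0945, 0.0952 and 0.110).

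Samples with the same replicate number did not deviate together (correlations of −0.11, 0.05 and −0.09, against −0.09 to 0.16 for different numbers). With 3 libraries per group these correlations cannot exclude that the numbers pair the samples. With the replicate block 2850 genes were higher and 2743 lower, and 5 members higher and 1 lower. Among the ratios, none changed sign with expected counts or without any library, but with expected counts Rps6kb1 to Rps6kb2 moved to 0.229, where TPM gave 0.078, Pdcd4 to Rps6kb1 to 0.246, where TPM gave 0.387, and Rheb to Tsc2 to 0.037, where TPM gave 0.125. Leaving out a library put Rps6kb1 to Rps6kb2 between 0.0066 (without rapamycin replicate 3) and 0.143, and Rheb to Tsc2 between 0.022 and 0.192. Depth limits Tbc1d7, with at most 31 counts, and Grb10, with 0.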
